A study of Homo sapiens with 15 samples.

Results

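PTGS2 and PTGER4 are 2 of the 14675 genes that the platform annotation named on these arrays. The rule took every probe set whose symbol was PTGS2 or PTGER4 and of these kept the probe set whose scores averaged highest on the 15 arrays. Each symbol had a single probe set, so 2 of 39937 probe sets were followed. Both genes were chosen on their scores over the time course in these data, and their own values are therefore given as a description, with no test.

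RNA was profiled on Affymetrix Human Gene 2.0 ST arrays in H1975, a widely used line from a human lung adenocarcinoma. The cells had been kept overnight in medium without serum and were then given 50 ng/ml of epidermal growth factor (EGF), the ligand of EGFR. There were 2 arrays at 0.5 h after EGF, 1 array at each of 1, 2, 4, 6, 8, 12 and 18 h, 3 arrays at 24 h and 3 at 48 h, and 18 h is given by the sample labels although the protocol text does not list it. Every array came from the same line, starved and given EGF. Cells before or without EGF were not analysed here, so time after EGF and time without serum cannot be told apart, and no value is a change from the unstimulated state. Nothing in the labels says that the replicates were separate cultures, and p-values measure only the spread between these arrays. H1975 is a tumour line with an activated EGFR of its own, which limits it as a model of normal lung epithelium.

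PTGS2, also called cyclooxygenase-2, turns arachidonic acid into prostaglandin H2, from which terminal synthases make the individual prostaglandins and thromboxane. In many epithelial cells it is transcribed quickly after growth factors or inflammatory signals, and its messenger RNA is short-lived. Prostaglandin E2, made from prostaglandin H2 by PTGES and related synthases, acts on a small family of receptors. PTGER4, the EP4 receptor, couples to the stimulatory G protein and raises cyclic AMP.

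The letters upstream of both genes are shown because their motif content is one feature that was not used to choose them. The 250 bases before each RefSeq start (GRCh38.p14) are printed 5′ to 3′ on the strand of the gene, with every match to a searched motif in capitals. PTGS2 lies on the minus strand at chr1:186680424-186680673 and PTGER4 on the plus strand at chr5:40679665-40679914.
PTGS2: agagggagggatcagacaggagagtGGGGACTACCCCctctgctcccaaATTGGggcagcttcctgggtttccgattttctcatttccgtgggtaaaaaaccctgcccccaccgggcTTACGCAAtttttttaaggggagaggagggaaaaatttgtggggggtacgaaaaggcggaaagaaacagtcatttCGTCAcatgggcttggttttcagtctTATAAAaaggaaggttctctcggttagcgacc
PTGER4: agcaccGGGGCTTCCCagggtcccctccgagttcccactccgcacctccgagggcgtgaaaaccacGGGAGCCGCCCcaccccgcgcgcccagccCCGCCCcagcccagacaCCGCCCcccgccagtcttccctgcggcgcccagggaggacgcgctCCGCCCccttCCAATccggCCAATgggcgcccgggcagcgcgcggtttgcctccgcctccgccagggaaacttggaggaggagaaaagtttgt

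The PTGS2 stretch held TATAAA, the TATA box, from -32 to -27 relative to the start, and 10.8% of 34796 RefSeq promoters of the same length held it on either strand. It also held the cyclic AMP response half-site TGACG on the opposite strand from -58 to -54, found in 21.2% of promoters. TTNNGNAA, a C/EBP-like motif, lay from -133 to -126 and occurs in 33.2% of promoters. The inverted CCAAT box lay from -201 to -197 and occurs in 32.0%, while an NF-kB-like motif, written as 3 G, any 5 bases and 2 C, matched in overlapping frames from -225 to -214 and occurs in 54.4%.

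The upstream letters of PTGER4 were richer in G and C, at 72.8% of bases, against 50.4% for PTGS2 and a median of 58.0% over all promoters. They held the GC box GGGCGG 4 times, all on the opposite strand, with 42.6% of promoters holding at least 1, and the CCAAT box from -83 to -79 and from -74 to -70. NF-kB-like matches lay from -244 to -235 and from -184 to -174, the second overlapping a GC box. Neither gene had the AP-1 site TGANTCA (6.6% of promoters), the EGR site GCGNGGGCG (8.4%) or a CArG box (1.2%) in this window, and the window of PTGER4 also lacked the TATA box, the cyclic AMP half-site and the C/EBP-like motif. These are matches of letters only.

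Scores are SCAN values, which standardise each array on its own on a log-like scale, and differences are in SCAN units with no fold change. The score of a gene can be followed over arrays, but scores of different probe sets were not read as relative amounts of RNA. Marker ranges and ranks by size of departure set genes side by side only as a description. Over the 15 arrays the array medians lay between 0.0644 and 0.0789. Arrays of the same time correlated at r of 0.9968 to 0.9973 over the 14675 genes, and arrays of different times at 0.9794 to 0.9970. No array pair was identical. The epithelial markers EPCAM (2.09 to 2.24) and KRT18 (2.828 to 2.971) scored in these ranges on all arrays, whereas CD14, LYZ and PF4 of blood cells stayed between -0.09 and 0.24 and DCN, LUM and VWF of fibroblasts and endothelium between -0.13 and 0.17. CD68, a lysosomal protein that epithelial lines also make, scored 2.42 to 2.59. CD14 and CD68 were lower at 48 h than at 0.5 h by limma (-0.11 ± 0.03 and -0.10 ± 0.03, SE, adjusted p = 0.0252 and 0.0193), calls that ended without 0.5 h replicate 1 for both, without 0.5 h replicate 3 or 48 h replicate 2 or 3 for CD14 and without 48 h replicate 1 for CD68, and their part in the results below was not tested.

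PTGS2 was high up to 2 h after EGF, low from 4 to 12 h and high again at 48 h. At 0.5 h the arrays scored 1.47 and 1.55, and single arrays scored 1.67 at 1 h and 1.63 at 2 h. Scores were 1.22 at 4 h, 1.32 at 6 h, 1.38 at 8 h, 1.26 at 12 h and 1.44 at 18 h. The arrays of 24 h scored 1.46, 1.49 and 1.41, and those of 48 h 1.76, 1.55 and 1.61. The 4 arrays from 4 to 12 h were thus the lowest of the 15, and all 3 arrays of 48 h lay above all 3 of 24 h.

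PTGER4 was high up to 1 h, intermediate at 2 h and low at every later time. Its arrays scored 1.01 and 1.05 at 0.5 h and 1.04 at 1 h. The single array of 2 h scored 0.69, between the 3 arrays before it and the 11 after it. From 4 to 18 h the scores were 0.36, 0.46, 0.42, 0.41 and 0.38, in order of time. At 24 h they were 0.48, 0.41 and 0.49, and at 48 h 0.41, 0.38 and 0.44. No array from 4 h on overlapped any array of the first 2 h, and the share of all genes with such a split was not computed.

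**Figure D1:**
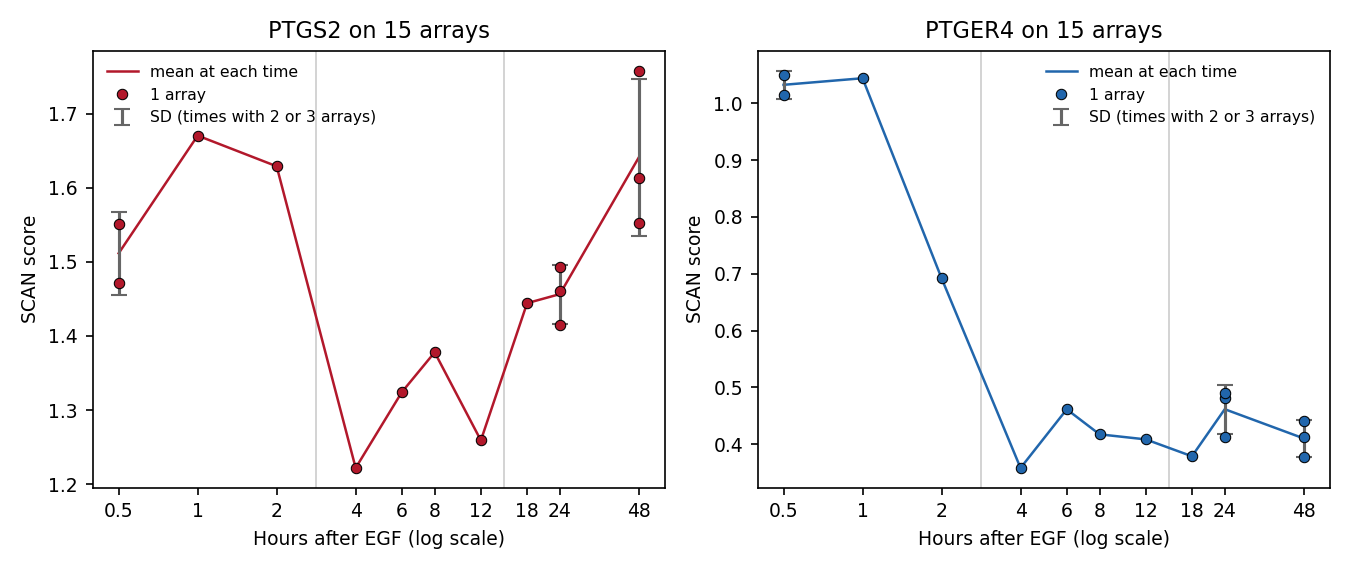
SCAN score of PTGS2 (left) and PTGER4 (right) against hours after EGF on a log axis, with 1 point per array, the line through the mean at each time and SD bars at 0.5, 24 and 48 h; grey lines part the early, middle and late windows, and neither score axis starts at 0. PTGS2 is at 1.22 at 4 h and averages 1.64 at 48 h, whereas PTGER4 stays at 0.49 or below on every array from 4 h on.

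To set these steps against the array-to-array error, the spread was pooled over the times with replicates (5 degrees of freedom). It was 0.0757 SCAN units for PTGS2 and 0.0356 for PTGER4. The 10 time means of PTGS2 spanned 0.45, or 5.92 of its replicate SDs, and those of PTGER4 0.69, or 19.3 of its SDs. PTGS2 averaged 1.51 ± 0.06 over the 2 arrays of 0.5 h, 1.46 ± 0.04 over the 3 of 24 h and 1.64 ± 0.11 over the 3 of 48 h (SD), so its replicates scattered most at 48 h. PTGER4 averaged 1.03 ± 0.03 over the 2 arrays of 0.5 h, 0.46 ± 0.04 over the 3 of 24 h and 0.41 ± 0.03 over the 3 of 48 h (SD).

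Ranked by time mean, PTGS2 was highest at 1 h, then at 48, 2, 0.5, 24, 18, 8, 6, 12 and 4 h. No neighbours in this order differed by more than 1.27 SDs of their difference, so the order of adjacent times is not settled by these arrays, although the ends of it lie far apart. The order for PTGER4 was 1, 0.5, 2, 24, 6, 8, 48, 12, 18 and 4 h. Its 2 h mean stood 7.81 SDs below that of 0.5 h and 5.61 SDs above that of 24 h, while all other neighbours lay within 0.87 SDs of each other.

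The windows used for tests on other genes were early (0.5, 1 and 2 h, 4 arrays), middle (4, 6, 8 and 12 h, 4 arrays) and late (18, 24 and 48 h, 7 arrays). PTGS2 averaged 1.30 ± 0.07 in the middle window, against 1.58 ± 0.09 in the early one (SD, n = 4 each), a difference of -0.28. All 4 middle arrays lay below all 4 early arrays, as in 2.58% of all genes tested. In the late window PTGS2 averaged 1.53 ± 0.12 (SD, n = 7), which was 0.24 above the middle window with no overlap, as in 6.06% of genes. Late and early arrays overlapped, with a difference of -0.05. With 4 h counted as early and 12 h as late, the step from early to middle was -0.158 and that from middle to late 0.148, and without the 48 h arrays the second was 0.158.

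For PTGER4 the middle window averaged 0.41 ± 0.04, against 0.95 ± 0.17 in the early window (SD, n = 4 each), a difference of -0.54. These arrays did not overlap, as in 2.58% of all genes in that direction. The late window averaged 0.43 ± 0.05 (SD, n = 7), a difference of 0.02 from the middle window, and these arrays overlapped. By window means the enzyme and the receptor thus shared the early-to-middle step and not the later one. The timing of that step differed on the single arrays of 1 and 2 h. PTGS2 scored 1.67 and then 1.63, whereas PTGER4 scored 1.04 and then 0.69. The wide early SD of PTGER4 came from the 2 h array, since the other 3 early arrays lay between 1.01 and 1.05.

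Between the replicated times, PTGS2 at 48 h was 0.18 above 24 h and 0.13 above 0.5 h, in each case with no overlap. Without 48 h replicate 1, its highest array, these differences were 0.126 and 0.071, and the lowest array of 48 h (1.552) was barely above the highest of 0.5 h (1.551). Groups of this size do not overlap upwards in 13.7% of all genes for 48 h against 24 h and in 26.6% for 48 h against 0.5 h. PTGER4 at 48 h was -0.62 from 0.5 h with no overlap (24.4% of genes in that direction) and -0.05 from 24 h with overlap. At 24 h it differed from 0.5 h by -0.57 without overlap (20.0%), whereas PTGS2 differed by -0.06 and its arrays overlapped.

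Taking the 4 h level as 0% and the 1 h level as 100%, PTGS2 stood at 22.8% at 6 h, 34.8% at 8 h, 8.3% at 12 h, 49.6% at 18 h, 52.3% at 24 h and 93.5% at 48 h. On the same scale PTGER4 was at 48.7% at 2 h and then between 3.0% and 15.1% at every time from 6 to 48 h. Both ends of this scale are single arrays. For PTGS2 the 48 h mean differed from the 1 h array by -0.03, 0.34 SDs of that difference.

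The largest departure of a time mean from the mean of the gene's own 10 time means was 0.232 for PTGS2, downwards at 4 h, and 0.478 for PTGER4, upwards at 1 h. By the size of this departure PTGS2 ranked 644 and PTGER4 133 among the 14675 genes, which is given as a description. It differs from the peak score of the study, which sets stimulated against control cells at each time, since control cells were not analysed here.

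Across the 10 time means the scores of PTGS2 and PTGER4 correlated at r = 0.598 (Spearman 0.697), and over the 15 arrays at r = 0.365. The points share arrays and their standardisation, and times are not independent. Among 1078 protein-coding genes whose time means spanned at least 0.3, PTGER4 came 78th in likeness to PTGS2 and PTGS2 came 123rd in likeness to PTGER4.

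The genes most like PTGS2 over the 10 time means were JUNB (r = 0.974), a subunit of AP-1, PER1 (0.927), a clock gene that cyclic AMP also induces, and SRF (0.920), the serum response factor. KLF7 (0.914), a zinc finger factor, PER2 (0.898), a second clock gene, KDM6B (0.894), a histone demethylase, and KRT80 (0.887), an epithelial keratin, followed. PDGFB (0.856), a growth factor chain, ETS2 (0.844), a transcription factor, and ZNG1A (0.843) closed the 10. JUNB averaged 1.87 at 0.5 h, 2.03 at 2 h, 1.62 at 12 h, 1.80 at 24 h and 2.02 at 48 h, so it too was low in the middle and high at 48 h. The most opposite profiles were those of EBP (-0.857), a sterol isomerase, ANKRD33 (-0.853) and FBXO48 (-0.786).

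PTGER4 was most like FOSB (r = 0.984), another AP-1 subunit, RHOB (0.969), a small GTPase, and CCN2 (0.966), a matrix-associated signalling protein. After these came SNX18 (0.952), CXCL8 (0.951), which encodes interleukin-8, PLK2 (0.95), a kinase, SNAI2 (0.933), a repressor of epithelial genes, KLF6 (0.929), TUFT1 (0.916) and CAVIN2 (0.915). FOSB averaged 0.33 at 0.5 h, 0.19 at 2 h, -0.03 at 4 h and -0.003 at 48 h. CCN2 averaged 2.11 at 0.5 h, 1.78 at 2 h, 0.40 at 4 h and 0.48 at 48 h, the same early high and lasting low. Opposite profiles were those of TMEM59 (-0.919), CLK1 (-0.912), a splicing kinase, and ZNF234 (-0.898). At r of 0.9 or more there were 4 genes for PTGS2 (0.371% of those compared) and 14 for PTGER4 (1.30%).

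**Figure D2:**
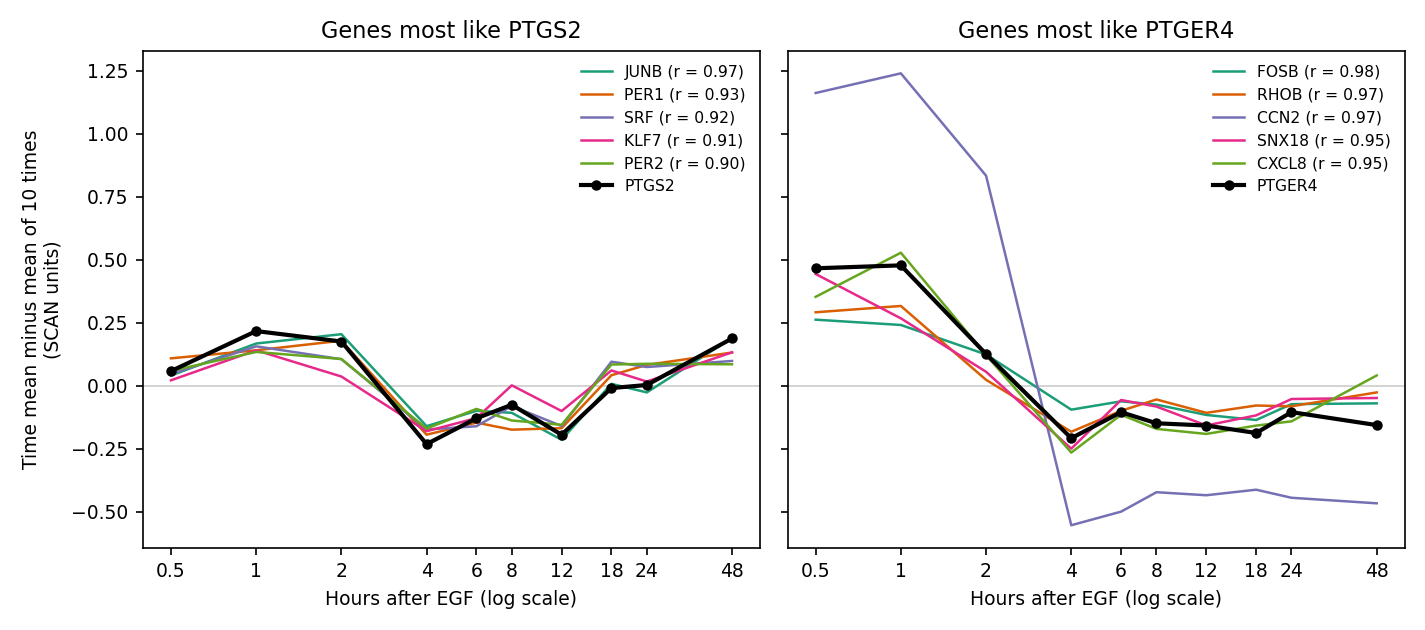
Time mean minus the mean of the 10 times (SCAN units) against hours after EGF on a log axis for PTGS2 (left) and PTGER4 (right), in black, and the 5 genes with the highest Pearson correlation to each, in colour. JUNB and the others at left dip from 4 to 12 h and are higher again at 48 h, and CCN2 at right spans 1.79 SCAN units, the widest of the 5.

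On chromosome 1 the gene next to PTGS2 with a score was PDC, a photoreceptor protein, which lay between -0.17 and -0.04 on all 15 arrays. TTC33 overlaps PTGER4 in the annotation and scored 1.02 to 1.16 with a median of 1.101. PACERR and PLA2G4A beside PTGS2, and PRKAA1 and RPL37 beside PTGER4, were not analysed here.

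The other genes of prostanoid biology were taken from 3 lists with 35 symbols, of which 20 were measured (8 of synthesis, 5 of clearance and reduction, 7 of receptors and their regulators). PTGER1, PTGER2, PLA2G4A, SLCO2A1 and ABCC4 were among those not analysed here. A limma model of time over all 14675 genes called 7 of the 20 over the time course at an adjusted p under 0.05, against 33.9% of all genes. They were PTGES, PTGS1 and PTGES3 of synthesis and PTGR1, PTGR2, PTGR3 and CBR1 of clearance. The PTGES3 call was lost without any 1 of 9 arrays (0.5 h replicate 3, the arrays of 2, 6 and 12 h, 24 h replicates 1 and 2, and each of 48 h), with adjusted p up to 0.21, and over all probe sets (0.0661). That of PTGR1, its only call, was lost without 0.5 h replicate 1, the 4 h or 6 h array, or 48 h replicate 2 or 3 (adjusted p up to 0.112). It also ended on quantile scaling, over all probe sets and with the replicate number as a block. The PTGR2 call over the time course was lost with that block (adjusted p = 0.064).

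PTGES, the inducible prostaglandin E synthase that follows PTGS2 in the pathway, was lowest when PTGS2 was high again, at 48 h. Its arrays scored 1.76 and 1.82 at 0.5 h and 1.76, 1.77, 1.80, 1.70, 1.65, 1.66 and 1.51 at 1, 2, 4, 6, 8, 12 and 18 h. At 24 h they scored 1.48, 1.44 and 1.53, and at 48 h 1.35, 1.38 and 1.34. All 7 late arrays lay below all 4 middle arrays, as in 6.51% of genes, and all 3 of 48 h below all 3 of 24 h, as in 14.3%. By limma the late window differed from the middle by -0.27 ± 0.04 (SE, adjusted p = 7.29e-05). At 48 h PTGES fell by 0.435 ± 0.034 against 0.5 h (adjusted p = 1.39e-08) and by 0.129 ± 0.030 against 24 h (adjusted p = 0.00754). Without replicate 3 of 24 h the last of these had an adjusted p of 0.0513.

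PTGS1, cyclooxygenase-1, which performs the same reaction as PTGS2 and is made steadily in many tissues, scored low and went lower. Its arrays read 0.21 and 0.25 at 0.5 h, 0.02, 0.10 and 0.06 at 24 h and 0.08, 0.04 and 0.14 at 48 h. Both later groups lay below 0.5 h without overlap, which 20.0% of genes do at 24 h and 24.4% at 48 h. PTGS1 fell by 0.175 ± 0.035 at 24 h and by 0.149 ± 0.035 at 48 h, each against 0.5 h (SE, limma, adjusted p = 0.00161 and 0.00306). From middle to late the difference was -0.08 ± 0.03 (adjusted p = 0.0319), a call that leaving out any 1 of 6 arrays ended (those of 4, 6, 8 and 18 h, 24 h replicate 1 and 48 h replicate 2), with adjusted p up to 0.157. It also ended with the replicate number as a block, and with 4 h counted as early and 12 h as late (highest adjusted p 0.112).

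PTGES3, a cytosolic prostaglandin E synthase that is also the Hsp90 co-chaperone p23, fell by 0.093 ± 0.033 at 48 h against 0.5 h (adjusted p = 0.0412) and by 0.109 ± 0.029 against 24 h (adjusted p = 0.0184). Leaving out 48 h replicate 1 or 2 ended both calls, as did 0.5 h replicate 3 or testing all probe sets for the comparison with 0.5 h and 24 h replicate 3 for that with 24 h. The remaining 5 synthesis genes, PTGES2, PTGDS, HPGDS, PTGIS and TBXAS1, passed in no comparison. At 48 h minus 0.5 h PTGES2 stood at -0.07 ± 0.03 (adjusted p = 0.109) and TBXAS1, thromboxane synthase, at -0.08 ± 0.04 (adjusted p = 0.154).

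PTGR3, a prostaglandin reductase, was higher in the middle window, where PTGS2 and PTGER4 were lower than before. It scored 0.87 and 0.88 at 0.5 h, 0.93 at 1 h and 0.93 at 2 h, and between 1.04 and 1.06 on the 4 middle arrays. At 24 h its arrays scored 1.06, 1.09 and 1.07, and at 48 h 1.11, 1.14 and 1.14. The middle arrays lay above all early ones, as in 5.25% of genes, and those of 24 h above those of 0.5 h, as in 23.8%. From early to middle it rose by 0.14 ± 0.02 (SE, limma, adjusted p = 0.00419), the only 1 of the 20 genes called there, against 1.58% of all genes. That call ended, at an adjusted p of 0.605, when 4 h was counted as early and 12 h as late. At 48 h PTGR3 was 0.26 ± 0.03 above 0.5 h (adjusted p = 1.78e-06) and at 24 h 0.20 ± 0.03 above it (adjusted p = 8.89e-05).

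PTGR2, which reduces the 15-keto form of prostaglandin E2, was 0.10 ± 0.03 higher at 24 h than at 0.5 h (adjusted p = 0.0382) and -0.09 ± 0.03 from 24 h at 48 h (adjusted p = 0.0452). The call at 24 h was lost without either 0.5 h array or 24 h replicate 1 or 2, and that at 48 h without either 0.5 h array, any array of 24 h, or 48 h replicate 1 or 3. Both were lost on centring, on quantile scaling and over all probe sets, and the call at 24 h also with the replicate number as a block. CBR1, a carbonyl reductase that can turn prostaglandin E2 into F2-alpha, was -0.10 ± 0.03 from middle to late (adjusted p = 0.00973), a call that ended without the 6 h array (0.0523), without the 48 h arrays, and with 4 h counted as early and 12 h as late (highest adjusted p 0.0867). HPGD, the dehydrogenase that begins the inactivation of prostaglandin E2, scored 0.37 ± 0.01 at 0.5 h (SD, n = 2), 0.37 ± 0.06 at 24 h and 0.44 ± 0.07 at 48 h (n = 3 each), and passed in no comparison.

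**Figure D3:**
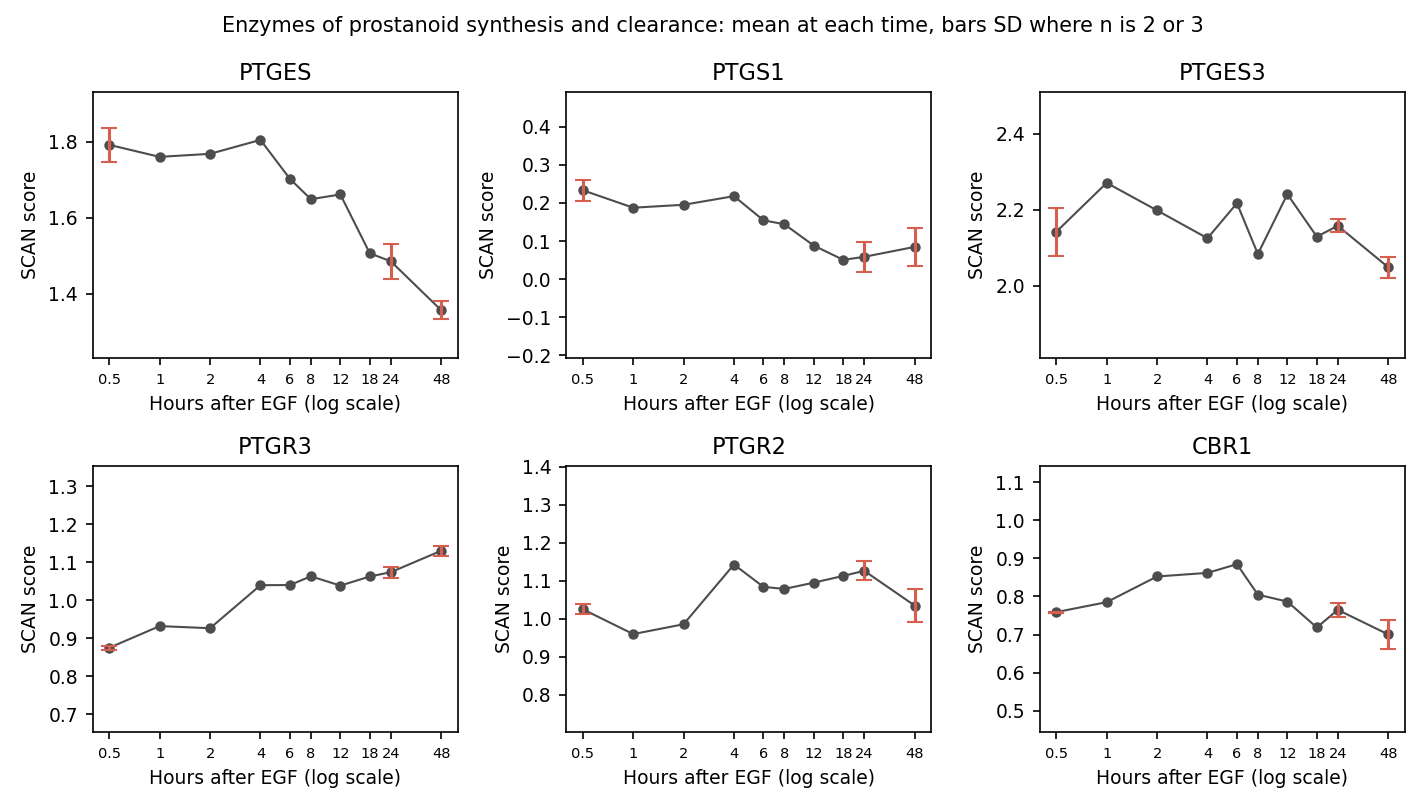
SCAN score against hours after EGF on a log axis for 6 prostanoid enzymes, with points at the mean of each time, SD bars at 0.5, 24 and 48 h, and 0.7 SCAN units from bottom to top of every panel. PTGES is at 1.36 at 48 h, its lowest, PTGS1 is lowest at 18 h and PTGR3 climbs to 1.13.

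PTGER4 was chosen on its own time course in these data, so its larger step than that of other receptors was given by the choice. PTGER1 and PTGER2 were not analysed here. The other prostanoid receptors measured lay within narrow ranges on all 15 arrays. These ranges were -0.22 to -0.09 for PTGER3 (EP3), -0.21 to -0.05 for PTGDR (DP1), 0.04 to 0.17 for PTGDR2, 0.003 to 0.134 for PTGFR, -0.05 to 0.08 for PTGIR and 0.15 to 0.31 for TBXA2R. Only PTGDR was called in any of the comparisons, at 48 h minus 0.5 h (-0.09 ± 0.03, SE, limma, adjusted p = 0.0392). It was not called without 48 h replicate 1 or 2, without either 0.5 h array, over all probe sets, or with the replicate number as a block. PTGDR scores were negative on all 15 arrays and have no floor to be read against. PTGFRN, a membrane protein that inhibits the prostaglandin F receptor, was -0.11 ± 0.03 in the same comparison (adjusted p = 0.0185), a call that ended without 48 h replicate 3 or either 0.5 h array.

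Counted over the 20 genes, 3 passed from middle to late (all lower, PTGES, PTGS1 and CBR1), against 19.1% of all genes. At 24 h minus 0.5 h 4 passed, against 17.2% of all genes, with PTGES and PTGS1 lower and PTGR2 and PTGR3 higher. At 48 h minus 0.5 h 6 passed, against 28.6%, of which PTGR3 alone was higher, and at 48 h minus 24 h 3 passed (PTGES, PTGES3 and PTGR2, all lower), against 12.9%. The median difference of the 20 at 48 h minus 0.5 h was -0.03, against 0.00 over all genes. In none of these comparisons did the count of the 20 depart far from the share of all genes.

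**Figure D4:**
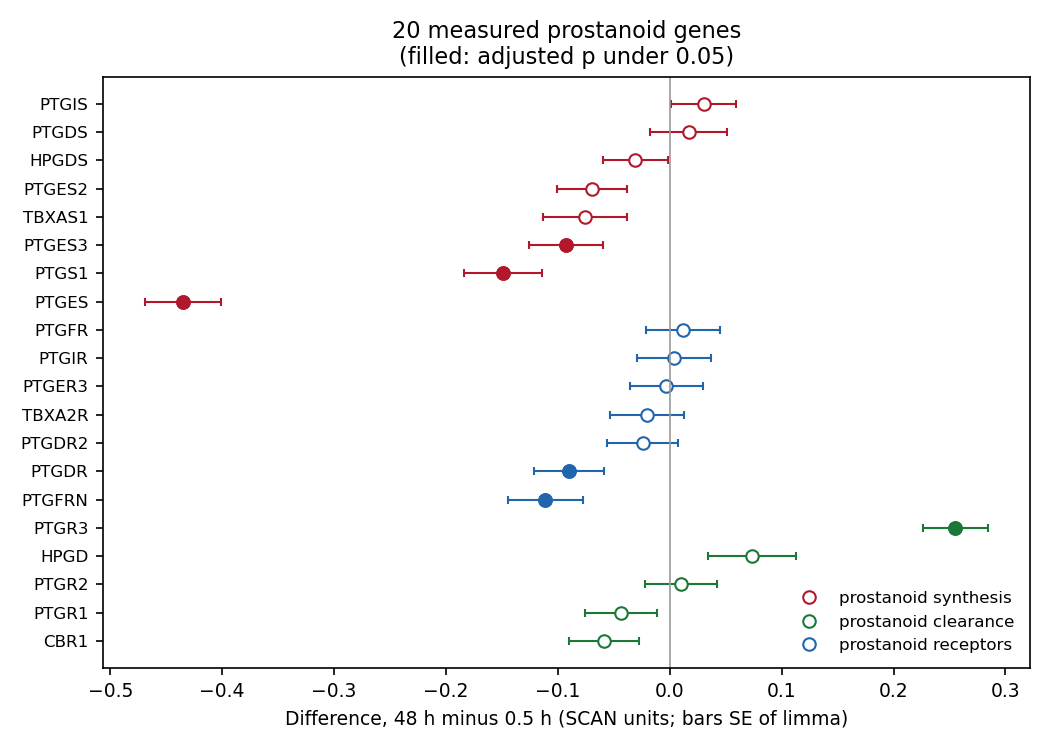
Difference of 48 h minus 0.5 h (SCAN units, bars 1 SE of limma) for the 20 measured prostanoid genes, grouped into synthesis, receptors and clearance, with filled points at an adjusted p under 0.05. PTGES (-0.435) and PTGR3 (0.26) lie farthest from 0 on either side.

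Genes of the lipoxygenase branch, which draws on the same arachidonic acid, were described from a list of 11 measured. CYSLTR1, a leukotriene receptor, was 0.31 ± 0.03 higher at 48 h than at 0.5 h and LTA4H, leukotriene A4 hydrolase, 0.22 ± 0.03 higher (SE, limma, adjusted p = 6.11e-07 and 1.59e-05). CYSLTR1 averaged -0.05 at 0.5 h and 0.26 at 48 h, low scores with no floor to be read against. LTB4R was 0.10 ± 0.04 higher (adjusted p = 0.0428) and ALOXE3 fell by 0.128 ± 0.032 (adjusted p = 0.00463). That made 4 of 11 called in this comparison, against 28.6% of all genes. The LTB4R call was lost without any 1 of 5 arrays (0.5 h replicate 1, 24 h replicates 1 and 3, 48 h replicates 1 and 2), with adjusted p up to 0.457. It was also lost over all probe sets and with the replicate number as a block.

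Of 17 measured transcription factors known to act at the PTGS2 promoter, 5 were called lower from early to middle and none higher, against 1.58% of all genes called there. Like the other lists, this one was chosen with earlier results of these data known, so its counts are a description. The part of these factors in the levels of PTGS2 was not tested. EGR1 fell by 0.985 ± 0.149, JUN by 0.564 ± 0.101, FOSB by 0.309 ± 0.032 and JUNB by 0.259 ± 0.058 (SE, limma, adjusted p = 0.00177, 0.0056, 3.15e-05 and 0.0276). From middle to late EGR1, JUN and JUNB were 0.47 ± 0.13, 0.26 ± 0.09 and 0.22 ± 0.05 higher (adjusted p = 0.0152, 0.0473 and 0.00565) and CREM was -0.10 ± 0.02 (adjusted p = 0.0061), with 6 of the 17 called, against 19.1% of all genes. Here the JUN call was lost without any 1 of 10 arrays (those of 1, 4, 6 and 18 h and each of 24 and 48 h), with adjusted p values as high as 0.181, over all probe sets, and with the replicate number as a block. The EGR1 call was lost when the 8 h array was left out (adjusted p = 0.0576), and those of EGR1 and JUN without the 48 h arrays. With 4 h counted as early and 12 h as late, EGR1, JUN and JUNB all lost theirs from middle to late (adjusted p = 0.389, 0.516 and 0.446). At 48 h JUNB was 0.15 ± 0.04 above 0.5 h (adjusted p = 0.00394, and 0.0905 without 0.5 h replicate 3), whereas EGR1, FOS and JUN were still -0.60, -0.51 and -0.41 from it (SE 0.03 each). The JUNB call from early to middle was lost without any 1 of 5 arrays (0.5 h replicate 1 and those of 1, 2, 4 and 12 h) and with the replicate number as a block. All 5 calls from early to middle were lost when 4 h was counted as early and 12 h as late.

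Among 7 measured genes listed for EP4 signal transduction, 4 passed from middle to late, against 19.1% of all genes. The adenylate cyclases ADCY6, ADCY7 and ADCY9, which make cyclic AMP, were 0.23 ± 0.04, 0.18 ± 0.03 and 0.15 ± 0.03 higher and ADCY3 was -0.12 ± 0.03 (SE, limma, adjusted p = 0.000246, 0.000139, 0.00161 and 0.0027), and the ADCY3 call was lost with 4 h counted as early and 12 h as late (adjusted p = 0.265). At 48 h minus 0.5 h ADCY6 and ADCY7 were both 0.28 ± 0.03 higher and GRK5, a receptor kinase, fell by 0.214 ± 0.035 (adjusted p = 1.64e-06, 5.41e-06 and 0.000128). Of 5 measured genes that cyclic AMP can induce, DUSP1 fell by 0.639 ± 0.139 and PER1 by 0.305 ± 0.029 from early to middle (adjusted p = 0.022 and 1.18e-05), against 1.58% of all genes called. The DUSP1 call was lost without any 1 of 6 arrays (both of 0.5 h and those of 1, 4, 6 and 12 h), with adjusted p up to 0.0959. PER1 was then 0.27 ± 0.03 higher from middle to late (adjusted p = 3.43e-06), and CREM was lower there, against 19.1% of all genes called. With 4 h counted as early and 12 h as late, PER1 lost both calls (adjusted p = 0.664 and 0.101) and DUSP1 its own (0.698). The part of PTGER4 or of cyclic AMP in the levels of these genes was not tested.

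Of 3 measured proteins that bind AU-rich elements, the class of element that shortens the life of the PTGS2 message, TIA1 was 0.17 ± 0.03 higher from early to middle (SE, limma, adjusted p = 0.00692, and 0.76 with 4 h counted as early and 12 h as late) and 0.28 ± 0.03 higher at 48 h than at 0.5 h (adjusted p = 1.53e-06). KHSRP, which promotes decay of such messages, was -0.11 ± 0.02 from middle to late (adjusted p = 0.000635). Of all genes, 1.58%, 28.6% and 19.1% were called in these 3 comparisons. The part of these genes in the levels of PTGS2 was not tested. Of 7 measured epithelial markers, 5 were called at 48 h minus 0.5 h, 4 higher and 1 lower, against 28.6% of all genes. NAPSA, napsin A of lung epithelium, was 1.24 ± 0.05 higher (adjusted p = 2.56e-12) and NKX2-1 0.20 higher (adjusted p = 7.77e-05). KRT19 and EPCAM were 0.11 and 0.08 higher, calls lost without any 1 of 3 and of 8 arrays. KRT7 was the lower one, at -0.17 ± 0.04 (adjusted p = 0.0012). The part of these shifts in the prostanoid genes was not tested either.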

How the data were processed

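The authors deposited 1 table of SCAN scores, made with Single Channel Array Normalisation, which models probe background by base composition and standardises each array separately on a log-like scale. Which SCAN version they ran is not given in the sources used. They assigned probes to genes by the array maker's annotation and dropped arrays that looked like outliers, and the labels give no batch. Of 39937 probe sets, 15426 had 1 symbol, 24511 had none and 0 had several; 534 genes had several probe sets, of which the one with the highest mean was kept, giving 14675 genes. Scores were used as deposited, with no filter and no scaling between arrays.

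Tests were two-sided and used limma 3.58.1 under R 4.3.3 (functions lmFit and eBayes), with Benjamini-Hochberg adjustment over 14675 genes and a threshold of 0.05. Windows were a 3-level factor, so their residual spread includes that between times of a window. The window limits follow the study's code. Contrasts of 0.5, 24 and 48 h came from a 10-level factor of time, whose replicate spread rests on 5 degrees of freedom, and the time course test from a natural spline of log2 time with 3 degrees of freedom. The number of arrays limits the precision. Scripts were tested on simulated data with known shifts.

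Tables were handled with Python 3.11.15, pandas 2.3.3 and numpy 2.4.6. Sequences and motif shares came from RefSeq promoters of GRCh38.p14, and both members matched.

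Named genes were both members, each prostanoid gene called in any comparison, every cyclooxygenase and prostanoid receptor, up to 4 called genes of largest size per contrast from the other lists, the 10 most and 3 least alike protein-coding genes of each member, and chromosome neighbours. The members and lists were chosen with earlier results of these data known. PTGES2, TBXAS1, HPGD and the other uncalled enzymes fall outside this rule and were named to complete the lists. The alternatives tried were 2 scalings, a filter on dim genes, all probe sets, a variance trend, the replicate number as a block, other window limits, each array left out in turn and, chosen after seeing the data, the 48 h arrays left out.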

Additional observations from a re-analysis of the deposited data

Results flagged for a closer look

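In 66 combinations of a gene and a window, 4 single arrays stood apart from the other 3 of their window, where a gap this large relative to the range is expected by chance in about 1 in 20. Arrays of a window come from different times, so such an array can also be a time. PTGER4 scored 0.692 on the 2 h array, against 1.01 to 1.05 on the other early arrays. PTGES scored 1.82 on 0.5 h replicate 3, against 1.76 to 1.77 on the other early arrays. PTGR3 scored 1.06 at 8 h, against 1.04 on each of the other middle arrays. PTGER3 scored -0.18 at 8 h, against -0.15 on the other middle arrays. The last of these is a difference of 0.02 SCAN units in a gene that passed in no comparison.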

How the results depend on the processing

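No difference changed sign among the called results under any alternative. With 4 h counted as early and 12 h as late, PTGS2 from early to middle was -0.158 and from middle to late 0.148, PTGER4 from early to middle was -0.39, and the prostanoid genes called were 0 and 1, among all genes 0 and 921. Without the 48 h arrays, an alternative chosen after seeing the data, PTGS2 from middle to late was 0.158, 2 prostanoid genes were called from early to middle, and all genes called were 377 and 1829 in the window comparisons.

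Leaving out each array in turn gave ranges of -0.321 to -0.255 (middle minus early), 0.201 to 0.265 (late minus middle), -0.095 to -0.015 (24 h minus 0.5 h), 0.071 to 0.174 (48 h minus 0.5 h) and 0.126 to 0.229 (48 h minus 24 h) for PTGS2. For PTGER4 they were -0.625 to -0.506, -0.001 to 0.033, -0.589 to -0.546, -0.640 to -0.605 and -0.076 to -0.035. Prostanoid genes called numbered 1 to 1, 1 to 4, 3 to 4, 3 to 6 and 0 to 3, and 5 to 8 over the time course. All genes called from early to middle fell to 141 without 0.5 h replicate 1, 144 without 1 h replicate 1 and 154 without 12 h replicate 2, and at 24 h minus 0.5 h to 1472 without 0.5 h replicate 1.

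Arrays with the same replicate number did not deviate together (correlations of -0.030 to 0.030), so the number does not pair them. With it as a replicate block, all genes called from early to middle were 124. Over all probe sets the calls were 355, 4355, 3966 and 6806 in the first 4 comparisons and 8501 over the time course. Of the 10 genes most like PTGS2, 7 were shared with Spearman ranks and 8 with the 15 arrays, and of those most like PTGER4, 5 and 8. A mean over probe sets of a symbol could not differ, since each gene had 1. Array scores give no detection call, so low levels such as those of PTGER3, PTGDR and PTGS1 have no floor to be read against.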
